A study of Homo sapiens with 16 samples.

Results

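The immediate-early, AP-1 and YAP response genes were followed through a BRD9 deletion time course in the human line G401. These cells derive from a malignant rhabdoid tumor of kidney and carry mutant SMARCB1, previously regarded as a core part of the SWI/SNF chromatin remodeler. The study reports that the SWI/SNF assemblies holding BRD9 are without SMARCB1. The set holds 43 genes of the 57820 in the tables, listed by name and role, and it was drawn up with earlier results of these data known. The BRD9 KO cells carried a CRISPR-Cas9 deletion of BRD9, the bromodomain subunit of a SWI/SNF subcomplex, and the control cells carried a guide to LacZ, a bacterial sequence absent from the human genome. Both groups were sampled on days 1, 2, 3 and 5 with 2 libraries per group and day, which gives 8 groups and 16 libraries. Both groups share the G401 background, and the cells are deletion pools and not clones. The event from which the days are counted is not given in the sources used here.

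Immediate-early genes are transcribed within minutes of a growth factor, serum or stress signal from promoters that need no new protein, and their RNAs are short-lived. Growth factor signals reach them mostly through the MAP kinase ERK, which activates ternary complex factors bound with SRF at CArG boxes, and through CREB at cyclic AMP response elements (CRE). FOS and JUN proteins pair through leucine zippers to form AP-1, which binds the TRE sequence at promoters and enhancers. YAP is a coactivator that the Hippo kinases keep out of the nucleus, and it drives genes such as CYR61 and CTGF through TEAD factors, often at enhancers that also hold AP-1 sites. Many of these genes encode proteins that end the response, among them MAP kinase phosphatases and RNA-decay factors.

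Levels are given as CPM, counts scaled to a common library size with edgeR's TMM factors. BRD9 had 16.7 and 17.1 CPM in BRD9 KO against 47.2 and 49.4 CPM in LacZ libraries on day 1. On day 2, BRD9 had 20 and 16.6 CPM in BRD9 KO against 45.8 and 47.6 CPM in LacZ libraries. It had 25.7 and 25.5 CPM in BRD9 KO against 62.2 and 64.5 CPM in LacZ libraries on day 3, and 25.9 and 22.5 CPM in BRD9 KO against 62.4 and 60.6 CPM in LacZ libraries on day 5. Every BRD9 KO library was below every LacZ library. The log2 fold changes of BRD9 were -1.51, -1.34, -1.31 and -1.36 on days 1, 2, 3 and 5. The library totals were 9185808 to 16560669 (median 13129228) in BRD9 KO and 11252814 to 15430060 (median 12672276) in LacZ libraries. The rhabdoid label was borne out by vimentin (VIM) at 1370 to 1860 TPM in BRD9 KO and 1430 to 1920 TPM in LacZ libraries and by SMARCB1, listed at 0 TPM in every BRD9 KO library and at up to 0.19 TPM in LacZ libraries. Over days 3 and 5 all 3 rhabdoid markers tested were called: KRT8 and KRT18 were higher in BRD9 KO, with log2 fold changes of 0.44 and 0.46, and VIM was lower, with -0.07 (edgeR adjusted p = 0.00105). Their part in the results on the members was not tested. Of the blood markers, PTPRC, CD3E and HBB were listed at 0 in all 16 libraries and LYZ reached 0.19 TPM in BRD9 KO and 0.3 TPM in LacZ libraries. The summed level stayed at 0.2 to 1.14 TPM in BRD9 KO and 0.05 to 0.88 TPM in LacZ libraries for 3 epithelial markers, at 0.1 to 0.69 and 0.11 to 0.61 TPM in the same groups for 3 endothelial markers (KDR at 0 throughout), and at 0.38 to 1.36 and 0.1 to 1.33 TPM for 2 neural markers (SNAP25 at 0 throughout). All libraries are bulk RNA, so fewer cells with a transcript and less RNA per cell cannot be told apart.

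In LacZ cells the members spanned a wide range of levels, given here per transcript length as TPM. The RNA-binding factor gene ZFP36L2 had the highest mean (190 TPM), followed by IER3 (188 TPM), ZFP36L1 (174 TPM) and JUND (153 TPM). Their ranges over the 8 LacZ libraries, 158 to 205 TPM for ZFP36L2 and 120 to 197 TPM for JUND, overlapped. Among the transcription factors of AP-1, FOSL1 (60.3 TPM), FOS (49.1 TPM), FOSL2 (43.3 TPM) and JUNB (41.8 TPM) were well above JUN (4.24 TPM) and FOSB (1.21 TPM). NR4A3 (0.44 TPM) and NR4A2 (0.29 TPM) were the lowest members that could be tested. The 5 members ARC, EGR2, ANKRD1, EGR3 and DUSP4 stayed under the filter on low counts, with 0 to 12 counts in any library, so 38 members were tested. ARC, a neuronal regulator of synapses, had the most of these with 2 to 12 counts in BRD9 KO and 1 to 5 counts in LacZ libraries, and no difference in these 5 genes could be assessed at this depth.

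More members lay below LacZ than above it in BRD9 KO on day 1, and more lay above it on days 3 and 5. On day 1 both BRD9 KO libraries lay below both LacZ libraries for 22 of the 38 tested members and above them for 4, while over all 15027 genes tested 20.6% lay below and 20.4% above. On day 2 the same counts were 7 below and 12 above (all genes 21.8% and 20.7%), on day 3 they were 3 below and 21 above (all genes 25.9% and 25.3%), and on day 5 they were 10 below and 22 above (all genes 27.2% and 27.3%). The median log2 fold change of the 38 members was -0.09, 0.02, 0.13 and 0.15 on days 1, 2, 3 and 5, and the median of all genes was close to 0 on each day. AJUBA and IER5L lay below on all 4 days (2.81% of all genes did so), and 0 members lay above on all 4 days (2.3% of all genes). The members were more abundant than most genes, with a median log2 CPM of 5.69 against 4.52 for all genes tested.

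The call rule was an adjusted p under 0.05 over all genes tested, from edgeR's quasi-likelihood test on all 16 libraries. On day 1, 0 members were higher and 2 lower in BRD9 KO, where 0.539% of all genes were called (0.273% higher and 0.266% lower) and 11 of the 38 members tested had an unadjusted p under 0.05 (10.2% of all genes). On day 2, 4 members were higher and 1 was lower (all genes 2.7% called, 1.12% higher and 1.58% lower). On day 3, 14 members were higher and 2 lower (all genes 10.4% called, 4.59% higher and 5.85% lower), and on day 5, 14 were higher and 5 lower (all genes 15% called, 7.53% higher and 7.45% lower). There were 11 members called higher on both day 3 and day 5, namely ATF3, CTGF, CYR61, DUSP1, DUSP5, EGR1, JUNB, KLF10, KLF6, NR4A3 and ZFP36L2. Of these 11, JUNB, KLF10, NR4A3 and ZFP36L2 lost the call of either day when single libraries of that day were left out, and the other 7 kept both. No member was called in opposite directions on different days. The counts on single days leaned on single libraries: without replicate 1 of LacZ day 3 the 16 calls of day 3 became 10, and without replicate 2 of BRD9 KO day 5 or replicate 1 of LacZ day 5 the 19 calls of day 5 became 11. Without any 1 of the day 2 libraries 2 members were called on day 2, and of the 5 calls only that of CYR61 was kept without replicate 1 of BRD9 KO, those of CYR61 and EGR1 without replicate 2 of BRD9 KO or replicate 1 of LacZ, and those of CYR61 and KLF6 without replicate 2 of LacZ. On day 1 the 2 calls became 0 without replicate 2 of BRD9 KO or replicate 1 of LacZ and 1 without either of the others.

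**Figure D1:**
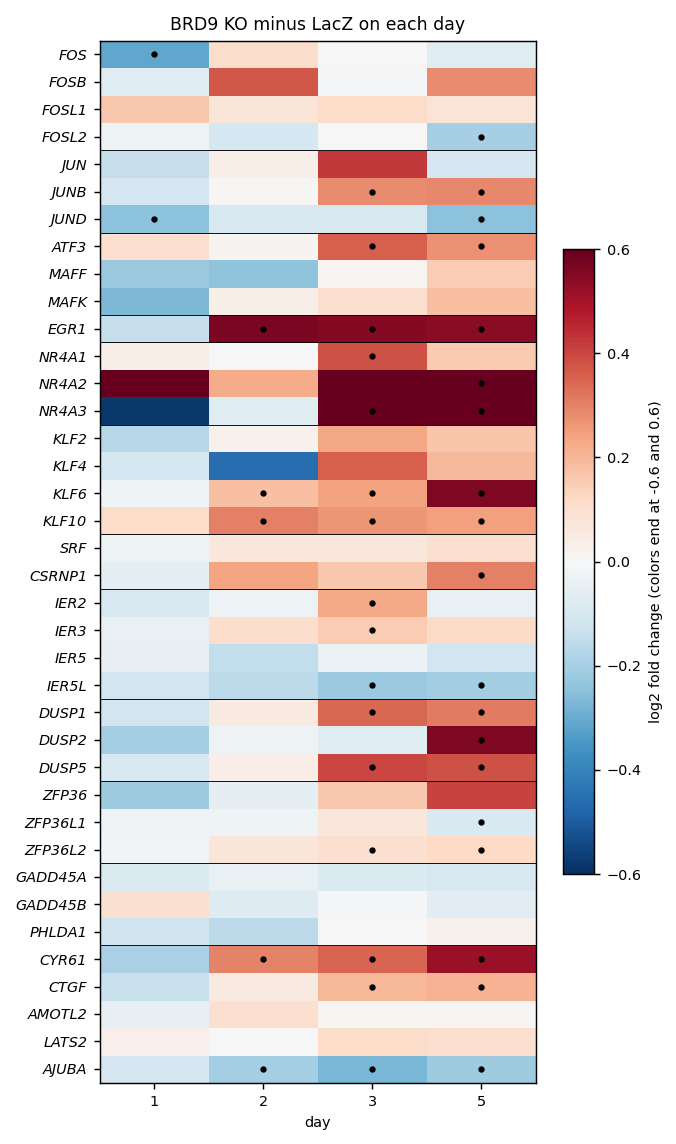
Log2 fold change of BRD9 KO minus LacZ for the 38 members tested (rows, ordered by role) on days 1, 2, 3 and 5 (columns), with red for higher in BRD9 KO, blue for lower, and a dot where the adjusted p was under 0.05. Dots number 2 on day 1, 5 on day 2, 16 on day 3 and 19 on day 5, and most of the later ones are on red cells.

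The days were then pooled in pairs. Over days 1 and 2 (early), 2 members were higher and 3 lower in BRD9 KO (all genes 3.31% called, 1.48% higher and 1.83% lower). Among these 5, the calls of EGR1, KLF10, JUND and PHLDA1 each depended on single libraries and that of AJUBA did not, so that 2 calls were left without replicate 2 of BRD9 KO day 1, replicate 2 of LacZ day 1 or either LacZ library of day 2, and 3 without replicate 1 of LacZ day 1 or either BRD9 KO library of day 2. Over days 3 and 5 (late), 16 members were higher and 4 lower (all genes 21.5% called, 10.6% higher and 10.9% lower), and leaving out any 1 library gave 18 to 21 calls. With limma on log2(TPM + 1) the late calls of CSRNP1, FOSL2, JUND, LATS2 and NR4A1 were lost and the other 15 were kept. Among the 6298 genes with a log2 CPM over 5, 16.4% were called higher and 19% lower in the late comparison, and 11 and 4 of the 26 members this abundant were. The late effect exceeded the early effect in 10 members and fell below it in 0 (all genes 7.43% called, 3.41% higher and 4.03% lower), and 9 of these 10 were among the 16 higher in the late period. When the 4 days were compared in a single F-test, the genotype effect varied with the day in 11 members (all genes 5.53%). The differences were mostly small. With an added minimum of 0.5 on the absolute log2 fold change, 0, 1, 2 and 6 members passed on days 1, 2, 3 and 5, where 0.0532%, 0.279%, 1.47% and 2.89% of all genes did, and 0 passed early (all genes 0.213%), 3 late (2.7%) and 1 in the difference of late and early (0.992%).

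**Figure D2:**
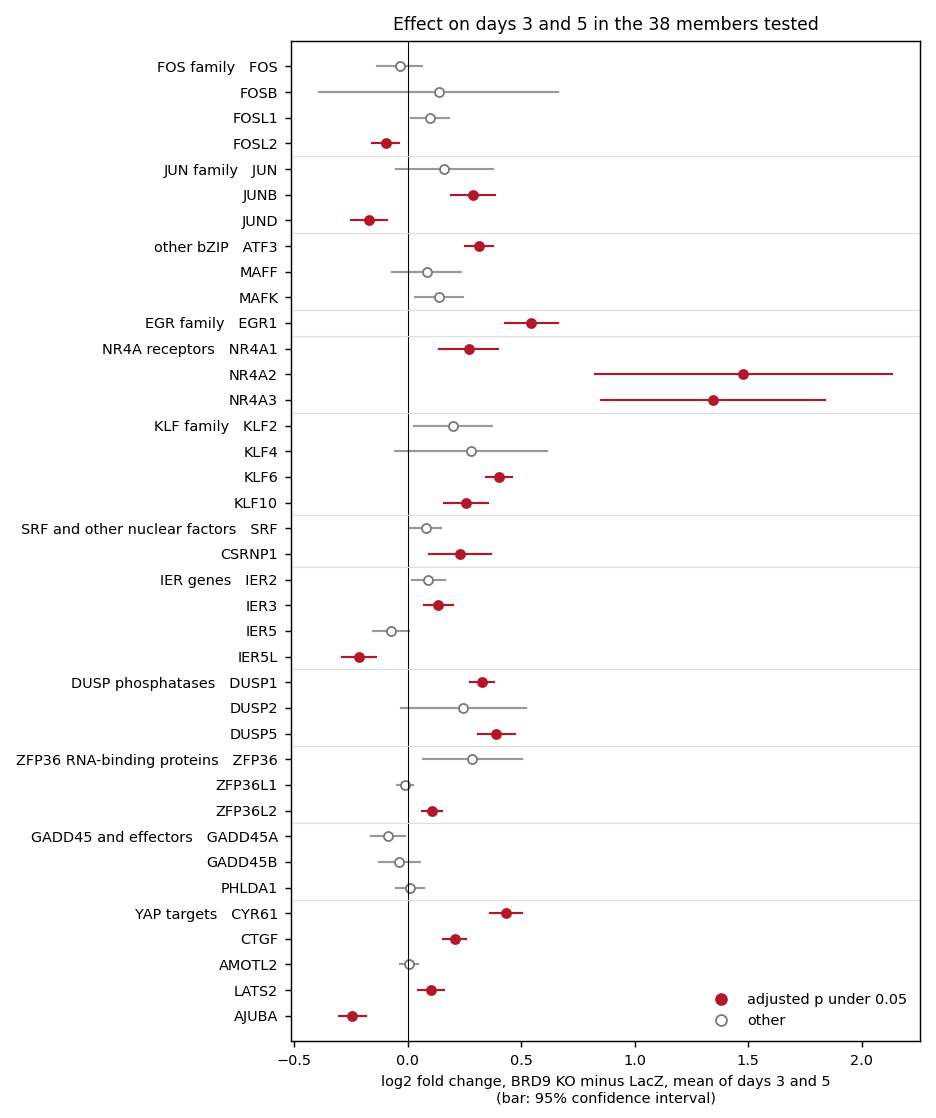
Log2 fold change of BRD9 KO minus LacZ averaged over days 3 and 5 (horizontal axis) for the 38 members tested, grouped by role, with points for estimates, bars for 95% confidence intervals and filled red for an adjusted p under 0.05. The largest estimates are NR4A2 at 1.48 and NR4A3 at 1.34 with wide bars, and AJUBA at -0.24, IER5L at -0.22, JUND at -0.17 and FOSL2 at -0.097 are filled points left of 0.

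The FOS family supplies the partners that make AP-1 bind DNA strongly. FOS (chromosome 14 of GRCh37, 75745529 to 75748933), its founding member, fell in BRD9 KO on day 1 and showed no call later. FOS had 75.1 and 71.5 CPM in BRD9 KO against 94.1 and 87.5 CPM in LacZ libraries on day 1. On day 2, FOS had 32.6 and 34.2 CPM in BRD9 KO against 32.8 and 29.1 CPM in LacZ libraries. It had 39.1 and 40.6 CPM in BRD9 KO against 39.3 and 40.1 CPM in LacZ libraries on day 3, and 33.7 and 34.2 CPM in BRD9 KO against 37.4 and 33.8 CPM in LacZ libraries on day 5. FOS was far higher on day 1 than afterwards in both genotypes, and on day 1 the BRD9 KO libraries were both below the LacZ libraries. The day 1 log2 fold change was -0.31 (standard error 0.05, edgeR adjusted p = 0.00538). The call was lost without replicate 2 of BRD9 KO day 1 (edgeR adjusted p = 0.173) and without replicate 1 of LacZ day 1 (edgeR adjusted p = 0.125). With limma on log2(TPM + 1) the day 1 call was lost as well (adjusted p = 0.497). The late log2 fold change was -0.036 (95% confidence interval -0.14 to 0.064, edgeR adjusted p = 0.664).

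FOSL1 and FOSL2 encode the longer-lived FRA1 and FRA2 proteins. FOSL1 had 56.4 and 49.4 CPM in BRD9 KO against 49 and 44.7 CPM in LacZ libraries on day 1. On day 2, FOSL1 had 49.3 and 53.6 CPM in BRD9 KO against 50.2 and 47.1 CPM in LacZ libraries. It had 61.8 and 62.9 CPM in BRD9 KO against 57.6 and 57.8 CPM in LacZ libraries on day 3, and 60.1 and 61.6 CPM in BRD9 KO against 57 and 58.2 CPM in LacZ libraries on day 5. FOSL1 had log2 fold changes of 0.16, 0.071, 0.11 and 0.084 on days 1, 2, 3 and 5, all above 0, and none passed the test. FOSL2 had 109 and 112 CPM in BRD9 KO against 115 and 112 CPM in LacZ libraries on day 1. On day 2, FOSL2 had 92.8 and 99.3 CPM in BRD9 KO against 102 and 104 CPM in LacZ libraries. It had 144 and 139 CPM in BRD9 KO against 138 and 145 CPM in LacZ libraries on day 3, and 125 and 120 CPM in BRD9 KO against 138 and 143 CPM in LacZ libraries on day 5. By single days FOSL2 was called lower in BRD9 KO on day 5 alone, and in the late comparison it fell by 0.097 on the log2 scale (edgeR adjusted p = 0.0198). That call was lost without any 1 of 4 libraries, replicate 2 of each group on days 3 and 5 (edgeR adjusted p = 0.0681 to 0.0961). FOSB, whose product is induced like FOS, was scarce. FOSB had 1.99 and 3.38 CPM in BRD9 KO against 3.36 and 2.49 CPM in LacZ libraries on day 1. On day 2, FOSB had 2.06 and 2.51 CPM in BRD9 KO against 1.89 and 1.62 CPM in LacZ libraries. It had 1.57 and 1.26 CPM in BRD9 KO against 1.29 and 1.58 CPM in LacZ libraries on day 3, and 2 and 1.52 CPM in BRD9 KO against 1.27 and 1.6 CPM in LacZ libraries on day 5. Its BRD9 KO libraries on day 1 spanned more than those of LacZ, and none of its differences between genotypes was called.

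JUN proteins pair with FOS proteins or with each other. JUNB (chromosome 19 of GRCh37, 12902300 to 12904129) is induced with FOS and restrains the action of JUN in many settings. JUNB had 62.8 and 60.9 CPM in BRD9 KO against 68.6 and 63.7 CPM in LacZ libraries on day 1. On day 2, JUNB had 33.4 and 34.6 CPM in BRD9 KO against 33.2 and 34.3 CPM in LacZ libraries. It had 48 and 49.2 CPM in BRD9 KO against 38.9 and 40.7 CPM in LacZ libraries on day 3, and 40.6 and 47.5 CPM in BRD9 KO against 35.9 and 37.2 CPM in LacZ libraries on day 5. As for FOS, the level was highest on day 1 in both genotypes, but on days 3 and 5 both BRD9 KO libraries exceeded both LacZ libraries. JUNB lost its call on day 3 without replicate 1 of LacZ day 3 (edgeR adjusted p = 0.0759) and on day 5 without replicate 2 of BRD9 KO day 5 or replicate 1 of LacZ day 5 (edgeR adjusted p = 0.0776 to 0.276), where its log2 fold change of 0.29 became 0.15 without the BRD9 KO library. JUNB rose late by 0.29 (standard error 0.046, edgeR adjusted p = 0.000152), a call kept without any 1 library of days 3 and 5, and the late effect exceeded the early effect by 0.33 (standard error 0.066, edgeR adjusted p = 0.00331). JUNB shares exon sequence with HOOK2 on the opposite strand (mean count 242.4 against 595.9 for JUNB), and the kit does not keep strand, so their reads there cannot be told apart. JUN had log2 fold changes of -0.14, 0.035, 0.42 and -0.10 on days 1, 2, 3 and 5, and none was called.

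JUND (chromosome 19 of GRCh37, 18390504 to 18392432) differs from its relatives in being present without stimulation. JUND had 142 and 150 CPM in BRD9 KO against 173 and 175 CPM in LacZ libraries on day 1. On day 2, JUND had 105 and 113 CPM in BRD9 KO against 112 and 119 CPM in LacZ libraries. It had 110 and 105 CPM in BRD9 KO against 109 and 122 CPM in LacZ libraries on day 3, and 131 and 123 CPM in BRD9 KO against 147 and 155 CPM in LacZ libraries on day 5. Both BRD9 KO libraries of JUND lay below both LacZ libraries on days 1 and 5, and the groups overlapped on days 2 and 3. Late, JUND fell by 0.17 on the log2 scale (standard error 0.038, edgeR adjusted p = 0.00267), and early it fell by 0.17 as well (edgeR adjusted p = 0.017). The early call was lost without any 1 of 4 libraries (edgeR adjusted p = 0.0598 to 0.109), namely replicate 1 of BRD9 KO day 1, replicate 2 of LacZ day 1, replicate 1 of BRD9 KO day 2 and replicate 2 of LacZ day 2. The late minus early difference was -0.0049 (95% confidence interval -0.12 to 0.11). With limma on log2(TPM + 1), a scale that also adjusts for transcript length, the late value of JUND was -0.066 (adjusted p = 0.363) and that of day 5 was -0.077 (adjusted p = 0.524, against an edgeR log2 fold change of -0.25), so that neither was called. On day 1 JUND had a log2 fold change of -0.24 (edgeR adjusted p = 0.0354), with adjusted p of 0.136 to 0.275 when any 1 library of that day was left out.

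The sequences shown are RefSeq promoter windows of 300 bases, 250 before and 50 after the transcription start, from a later build than the counts. They are given for members whose windows hold the element of a factor named above. JUND has a CRE (TGACGTCA, searched on both strands) at -200 to -193 from the start, shown in capitals below (GRCh38.p14, chr19:18281573-18281872, minus strand).
JUND: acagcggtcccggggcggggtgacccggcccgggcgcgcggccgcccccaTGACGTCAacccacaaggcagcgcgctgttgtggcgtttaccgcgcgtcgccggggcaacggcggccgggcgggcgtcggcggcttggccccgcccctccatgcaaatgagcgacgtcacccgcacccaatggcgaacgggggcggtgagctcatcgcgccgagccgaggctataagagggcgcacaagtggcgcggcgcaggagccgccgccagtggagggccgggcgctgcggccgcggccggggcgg
Of the 31 members with a window, 4 held a CRE, namely JUND, MAFF, DUSP1 and ZFP36L1, and 1.85% of all 35116 windows did. Here and below a member counts if any of its windows matched, and the share over all windows is per single window. Members with more than 1 window thus had more chances to match, and the 2 shares are not like for like. Sequence outside the windows was not searched, so a member without a match may hold the element farther from its start. A TRE (TGACTCA or TGAGTCA, both strands), the AP-1 element, was in the window of 1 member, FOSL2, and in 4.95% of all windows. By the test on counts JUND was called lower and DUSP1 higher late in BRD9 KO, and MAFF and ZFP36L1 were not called late. Whether the element had a part in these values was not tested.

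ATF3, a stress-induced bZIP factor that can pair with JUN, was the most abundant of the other bZIP members. ATF3 had 56.8 and 54.1 CPM in BRD9 KO against 51.1 and 51.8 CPM in LacZ libraries on day 1. On day 2, ATF3 had 60.6 and 62.8 CPM in BRD9 KO against 61.7 and 60.1 CPM in LacZ libraries. It had 78.7 and 81.2 CPM in BRD9 KO against 62.4 and 62.2 CPM in LacZ libraries on day 3, and 66.6 and 64.7 CPM in BRD9 KO against 54.9 and 53.4 CPM in LacZ libraries on day 5. For ATF3 the groups overlapped on day 2, and BRD9 KO was above LacZ on days 1, 3 and 5. The late rise of ATF3 was 0.31 (standard error 0.029, edgeR adjusted p = 1.96e-07), and the late effect exceeded the early effect by 0.26 (standard error 0.042, edgeR adjusted p = 0.000625). With limma on log2(TPM + 1) the late call of ATF3 was kept and that of late minus early was lost (adjusted p = 0.214). The ATF3 calls on day 3 and day 5 were lost there too (limma adjusted p = 0.134 and 0.0776), as was that of the F-test over days. The small MAF factors MAFF and MAFK lack an activation domain and pair with other bZIP proteins. MAFK had log2 fold changes of -0.27, 0.037, 0.096 and 0.18 on days 1, 2, 3 and 5, with a late estimate of 0.14 (95% confidence interval 0.032 to 0.24, edgeR adjusted p = 0.0591), and MAFF had -0.22, -0.24, 0.014 and 0.15 on days 1, 2, 3 and 5, and neither was called in any comparison of genotypes. MAFF overlaps PLA2G6 on the opposite strand (mean count 34 for PLA2G6 against 244.9 for MAFF).

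EGR1 (chromosome 5 of GRCh37, 137801168 to 137804992), a zinc finger factor and a classical target of ERK and SRF, was higher in BRD9 KO from day 2 on. EGR1 had 46.3 and 50.3 CPM in BRD9 KO against 54.5 and 52.7 CPM in LacZ libraries on day 1. On day 2, EGR1 had 16.4 and 14.5 CPM in BRD9 KO against 11 and 9.97 CPM in LacZ libraries. It had 28.1 and 28.2 CPM in BRD9 KO against 19.5 and 18.9 CPM in LacZ libraries on day 3, and 22.7 and 24.3 CPM in BRD9 KO against 16.2 and 16.3 CPM in LacZ libraries on day 5. The level was lower after day 1 in both genotypes, and from day 2 on both BRD9 KO libraries lay above both LacZ libraries, whereas on day 1 both lay below. The log2 fold changes were -0.14, 0.56, 0.55 and 0.54 on days 1, 2, 3 and 5. Its late rise was 0.54 (standard error 0.055, edgeR adjusted p = 6.18e-07). On day 2 the adjusted p was 0.00252 from edgeR, and it was 0.0911 without replicate 1 of BRD9 KO and 0.0539 without replicate 2 of LacZ of that day. The late effect exceeded the early effect by 0.33 (standard error 0.08, edgeR adjusted p = 0.0145), a call lost without replicate 1 of LacZ day 2 (edgeR adjusted p = 0.0674). EGR2 and EGR3 had at most 7 counts in any library.

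The EGR1 window holds 2 CArG boxes, the binding element of SRF, at -105 to -96 and -83 to -74, in capitals below (GRCh38.p14, chr5:138465229-138465528, plus strand).
EGR1: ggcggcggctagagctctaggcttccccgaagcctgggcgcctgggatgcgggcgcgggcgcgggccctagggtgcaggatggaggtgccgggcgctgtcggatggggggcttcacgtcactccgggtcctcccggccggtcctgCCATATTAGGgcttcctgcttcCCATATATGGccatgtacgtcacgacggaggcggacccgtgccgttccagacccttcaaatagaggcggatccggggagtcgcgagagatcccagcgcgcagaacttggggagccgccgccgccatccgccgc
CArG boxes were found in 3 of the 31 members with a window, EGR1, EGR2 and SRF, and in 1.29% of all windows. SRF had its own at -30 to -21 and -10 to -1 in 1 of its 2 windows. The SRF gene encodes the factor itself. SRF had 112 and 106 CPM in BRD9 KO against 108 and 114 CPM in LacZ libraries on day 1. On day 2, SRF had 111 and 111 CPM in BRD9 KO against 103 and 110 CPM in LacZ libraries. It had 141 and 131 CPM in BRD9 KO against 135 and 127 CPM in LacZ libraries on day 3, and 129 and 125 CPM in BRD9 KO against 118 and 119 CPM in LacZ libraries on day 5. Both BRD9 KO libraries of SRF lay above both LacZ libraries on days 2 and 5, the groups overlapped on days 1 and 3, and no day was called. The late log2 fold change was 0.079 (95% confidence interval 0.011 to 0.15, edgeR adjusted p = 0.0968). CSRNP1, a nuclear factor induced by AXIN1, rose late by 0.23 (standard error 0.065, edgeR adjusted p = 0.0146), and lost the call without replicate 2 of BRD9 KO day 3, replicate 1 of LacZ day 3 or replicate 2 of LacZ day 5 (edgeR adjusted p = 0.0597 to 0.0786).

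The NR4A genes encode orphan nuclear receptors that act as immediate-early factors without a known ligand. NR4A2 and NR4A3 had the largest late fold changes of the members tested, at low counts. NR4A3 (chromosome 9 of GRCh37, 102584137 to 102629173) had 4 to 93 counts in BRD9 KO and 6 to 30 counts in LacZ libraries. NR4A3 had 0.442 and 0.406 CPM in BRD9 KO against 0.459 and 0.787 CPM in LacZ libraries on day 1. On day 2, NR4A3 had 1.17 and 0.808 CPM in BRD9 KO against 1.34 and 0.767 CPM in LacZ libraries. It had 5.61 and 4.29 CPM in BRD9 KO against 2.42 and 2.22 CPM in LacZ libraries on day 3, and 2.45 and 2.25 CPM in BRD9 KO against 0.744 and 0.802 CPM in LacZ libraries on day 5. Both BRD9 KO libraries of NR4A3 were below both LacZ libraries on day 1, the groups overlapped on day 2, and on days 3 and 5 BRD9 KO was above. Its call on day 3 was lost without replicate 1 of BRD9 KO day 3 or either library of LacZ day 3 (edgeR adjusted p = 0.0922 to 0.229) and that on day 5 without replicate 1 of LacZ day 5 (edgeR adjusted p = 0.0577). NR4A3 rose late by 1.34 (standard error 0.23, edgeR adjusted p = 0.000312), a call kept without any 1 library of those days. The late effect exceeded the early effect by 1.67 (standard error 0.40, edgeR adjusted p = 0.014), with the call lost without replicate 2 of LacZ day 1 (edgeR adjusted p = 0.0799) or replicate 1 of LacZ day 2 (edgeR adjusted p = 0.0564).

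NR4A2 (chromosome 2 of GRCh37, 157180949 to 157198860), which is needed for dopamine neurons, had 2 to 32 counts in BRD9 KO and 2 to 13 counts in LacZ libraries. NR4A2 had 0.221 and 0.338 CPM in BRD9 KO against 0.153 and 0.197 CPM in LacZ libraries on day 1. On day 2, NR4A2 had 0.344 and 0.539 CPM in BRD9 KO against 0.314 and 0.426 CPM in LacZ libraries. It had 1.93 and 1.68 CPM in BRD9 KO against 0.646 and 1.03 CPM in LacZ libraries on day 3, and 1.27 and 1.4 CPM in BRD9 KO against 0.372 and 0.356 CPM in LacZ libraries on day 5. Its BRD9 KO libraries on days 3 and 5 were above all its LacZ libraries. NR4A2 rose late by 1.48 (standard error 0.31, edgeR adjusted p = 0.00179), a call kept without any 1 library of those days. By single days it was called on day 5 alone, with a log2 fold change of 1.85 (edgeR adjusted p = 0.0116). That call was lost without replicate 2 of BRD9 KO day 5 or either library of LacZ day 5, which held 5 and 4 counts. NR4A1 was far more abundant. NR4A1 had 27.6 and 23.3 CPM in BRD9 KO against 25.1 and 23.8 CPM in LacZ libraries on day 1. On day 2, NR4A1 had 17.3 and 16.1 CPM in BRD9 KO against 18.7 and 14.7 CPM in LacZ libraries. It had 35.5 and 33 CPM in BRD9 KO against 25.9 and 26.9 CPM in LacZ libraries on day 3, and 30.1 and 29.2 CPM in BRD9 KO against 27.6 and 25.3 CPM in LacZ libraries on day 5. By CPM, BRD9 KO and LacZ overlapped on days 1 and 2 and were separate on days 3 and 5. NR4A1 rose late by 0.27 (standard error 0.062, edgeR adjusted p = 0.00382). With limma on log2(TPM + 1) the late value of NR4A1 was 0.16 (adjusted p = 0.478) and the call was lost. As TPM, NR4A1 had 27.1 and 28 in BRD9 KO against 29.5 and 25.9 in LacZ libraries on day 5, which overlapped. On the same scale NR4A2 and NR4A3 kept their late calls with values of 0.62 and 0.59. An antisense gene, NR4A1AS, overlaps it with a mean count of 20.9 against 327.2.

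**Figure D3:**
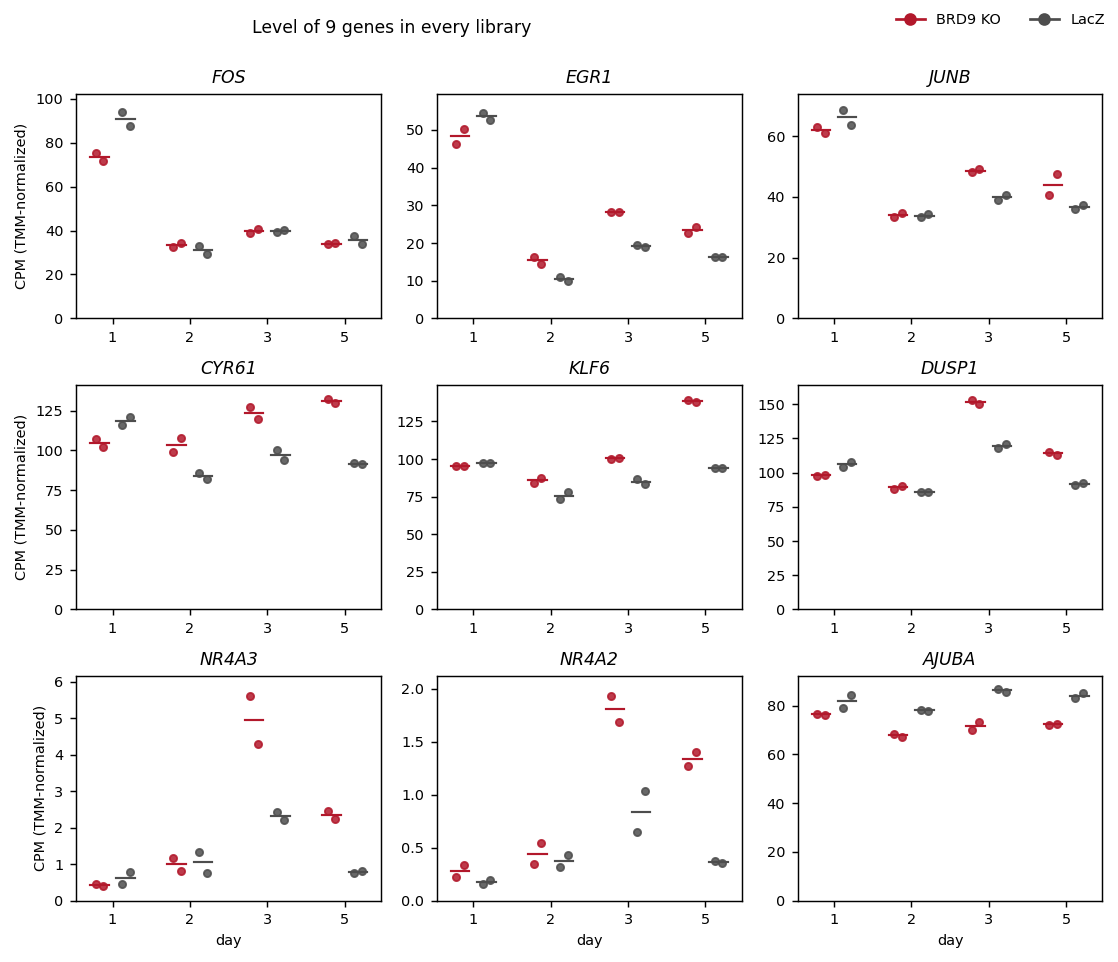
Level in every library as TMM-normalized CPM (vertical axes, each starting at 0) for 9 members on days 1, 2, 3 and 5, with 2 points per group, red for BRD9 KO and grey for LacZ, and a line at each mean. FOS, EGR1 and JUNB are highest on day 1 in both genotypes, CYR61, KLF6, DUSP1, NR4A3 and NR4A2 have both red points above both grey ones on days 3 and 5, and AJUBA has them below on all 4 days.

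KLF6, a zinc finger factor with growth-suppressing roles, and KLF10, an early target of TGF-beta, were higher in BRD9 KO from day 2 on. KLF6 had 95.4 and 95.5 CPM in BRD9 KO against 97.2 and 97.3 CPM in LacZ libraries on day 1. On day 2, KLF6 had 84.2 and 87.7 CPM in BRD9 KO against 73.6 and 77.8 CPM in LacZ libraries. It had 100 and 101 CPM in BRD9 KO against 86.8 and 83.3 CPM in LacZ libraries on day 3, and 139 and 138 CPM in BRD9 KO against 93.9 and 94.1 CPM in LacZ libraries on day 5. KLF6 was slightly lower in BRD9 KO on day 1 and above LacZ by more on each later day. The log2 fold changes were -0.027, 0.18, 0.24 and 0.56 on days 1, 2, 3 and 5, and KLF6 rose late by 0.40 (standard error 0.027, edgeR adjusted p = 2.14e-09). KLF10 had 56.8 and 64.9 CPM in BRD9 KO against 59.8 and 54.7 CPM in LacZ libraries on day 1. On day 2, KLF10 had 39.8 and 43.5 CPM in BRD9 KO against 33.6 and 33.8 CPM in LacZ libraries. It had 50.3 and 48.3 CPM in BRD9 KO against 43.1 and 39.3 CPM in LacZ libraries on day 3, and 58.5 and 59.2 CPM in BRD9 KO against 49.7 and 49.7 CPM in LacZ libraries on day 5. KLF10 libraries of BRD9 KO were above those of LacZ on days 2, 3 and 5, and it rose late by 0.25 (standard error 0.046, edgeR adjusted p = 0.000449). The day 2 calls rested on single libraries, with edgeR adjusted p of 0.0601 to 0.238 for KLF10 without any 1 library of that day and 0.0568 to 0.274 for KLF6 without either library of BRD9 KO day 2 or replicate 1 of LacZ day 2. The calls of KLF10 on single later days were also lost, on day 3 without replicate 1 of BRD9 KO day 3 or replicate 2 of LacZ day 3 and on day 5 without replicate 2 of BRD9 KO day 5 or either library of LacZ day 5 (edgeR adjusted p = 0.161 to 0.191 and 0.0646 to 0.0932), while its late call was kept. For KLF6 the late effect exceeded the early effect by 0.32 (standard error 0.039, edgeR adjusted p = 1.92e-05), and for KLF10 the difference was 0.05 (95% confidence interval -0.091 to 0.19, edgeR adjusted p = 0.772).

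KLF2 and KLF4, factors of quiescence and differentiation, were less abundant and not called. KLF2 had 14.6 and 10.4 CPM in BRD9 KO against 13.4 and 13.8 CPM in LacZ libraries on day 1. On day 2, KLF2 had 12.3 and 13.3 CPM in BRD9 KO against 13 and 12 CPM in LacZ libraries. It had 24.6 and 21.2 CPM in BRD9 KO against 17.8 and 21.5 CPM in LacZ libraries on day 3, and 17.6 and 18.5 CPM in BRD9 KO against 16.2 and 16 CPM in LacZ libraries on day 5. KLF2 overlapped between the genotypes on days 1, 2 and 3. KLF4 had 3.65 and 4.67 CPM in BRD9 KO against 4.51 and 4.59 CPM in LacZ libraries on day 1. On day 2, KLF4 had 3.99 and 3.95 CPM in BRD9 KO against 6.13 and 4.77 CPM in LacZ libraries. It had 3.86 and 4.63 CPM in BRD9 KO against 3.23 and 3.33 CPM in LacZ libraries on day 3, and 3.36 and 2.74 CPM in BRD9 KO against 2.9 and 2.32 CPM in LacZ libraries on day 5. KLF4 was below LacZ on day 2 and above it on day 3. Late log2 fold changes were 0.20 (95% confidence interval 0.029 to 0.37, edgeR adjusted p = 0.0926) for KLF2 and 0.28 (95% confidence interval -0.056 to 0.61, edgeR adjusted p = 0.244) for KLF4.

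The IER genes are named for their immediate-early response, and they did not move together. IER3, a regulator of survival, was the most abundant. IER3 had 142 and 149 CPM in BRD9 KO against 154 and 147 CPM in LacZ libraries on day 1. On day 2, IER3 had 129 and 131 CPM in BRD9 KO against 116 and 125 CPM in LacZ libraries. It had 130 and 137 CPM in BRD9 KO against 117 and 122 CPM in LacZ libraries on day 3, and 155 and 158 CPM in BRD9 KO against 147 and 142 CPM in LacZ libraries on day 5. IER3 rose late by 0.13 (standard error 0.031, edgeR adjusted p = 0.00328), with both BRD9 KO libraries above both LacZ libraries on days 2, 3 and 5. IER5L had 59 and 60.8 CPM in BRD9 KO against 66.8 and 63.3 CPM in LacZ libraries on day 1. On day 2, IER5L had 39.8 and 41.9 CPM in BRD9 KO against 45.1 and 45.8 CPM in LacZ libraries. It had 40.8 and 40.8 CPM in BRD9 KO against 49.5 and 45.9 CPM in LacZ libraries on day 3, and 53 and 50.3 CPM in BRD9 KO against 60.4 and 58.3 CPM in LacZ libraries on day 5. IER5L, a relative of IER5, was lower in both BRD9 KO libraries on every day, and in the late comparison it fell by 0.22 on the log2 scale (standard error 0.036, edgeR adjusted p = 0.000227). IER2 had 59 and 59.3 CPM in BRD9 KO against 63.8 and 63 CPM in LacZ libraries on day 1. On day 2, IER2 had 37.1 and 39.4 CPM in BRD9 KO against 37.6 and 40.4 CPM in LacZ libraries. It had 46.6 and 48.3 CPM in BRD9 KO against 40.8 and 40.1 CPM in LacZ libraries on day 3, and 48.1 and 47.2 CPM in BRD9 KO against 49.4 and 48.7 CPM in LacZ libraries on day 5. IER2 was called higher in BRD9 KO on day 3, with both BRD9 KO libraries below LacZ on days 1 and 5, and the F-test over days had an adjusted p of 0.0186 (edgeR). Without replicate 2 of BRD9 KO day 3, or without either LacZ library of day 3, that p was 0.0594 to 0.102 (edgeR, adjusted), and the day 3 call was lost without replicate 2 of LacZ day 3 (edgeR adjusted p = 0.0642). IER5 had log2 fold changes of -0.05, -0.15, -0.035 and -0.11 on days 1, 2, 3 and 5, none called.

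DUSP genes encode phosphatases that switch off MAP kinases. DUSP1 (chromosome 5 of GRCh37, 172195099 to 172198198) and DUSP5, which act in the nucleus, both rose late in BRD9 KO. DUSP1 had 97.5 and 98.5 CPM in BRD9 KO against 104 and 108 CPM in LacZ libraries on day 1. On day 2, DUSP1 had 88.3 and 90.5 CPM in BRD9 KO against 85.8 and 86.2 CPM in LacZ libraries. It had 153 and 150 CPM in BRD9 KO against 118 and 121 CPM in LacZ libraries on day 3, and 115 and 113 CPM in BRD9 KO against 91 and 92.1 CPM in LacZ libraries on day 5. DUSP1 was below LacZ on day 1, nearly level on day 2 and above it afterwards. DUSP1 rose late by 0.33 (standard error 0.025, edgeR adjusted p = 1.71e-08), and the late effect exceeded the early effect by 0.36 (standard error 0.037, edgeR adjusted p = 3.27e-06). Its CRE lies at -125 to -118, in capitals below (GRCh38.p14, chr5:172771146-172771445, minus strand), the same element as in JUND above.
DUSP1: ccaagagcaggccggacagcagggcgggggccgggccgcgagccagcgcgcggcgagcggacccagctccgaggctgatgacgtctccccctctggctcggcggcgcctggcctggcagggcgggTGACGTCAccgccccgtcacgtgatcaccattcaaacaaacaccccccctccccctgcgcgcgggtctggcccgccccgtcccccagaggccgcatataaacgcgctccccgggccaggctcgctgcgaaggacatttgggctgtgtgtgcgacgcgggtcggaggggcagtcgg
DUSP5 had 30.9 and 30.6 CPM in BRD9 KO against 33.6 and 31.9 CPM in LacZ libraries on day 1. On day 2, DUSP5 had 41.1 and 37.3 CPM in BRD9 KO against 36.1 and 40.7 CPM in LacZ libraries. It had 77.3 and 75.3 CPM in BRD9 KO against 55.2 and 60.7 CPM in LacZ libraries on day 3, and 80.4 and 75.6 CPM in BRD9 KO against 58 and 61.5 CPM in LacZ libraries on day 5. DUSP5 was higher on days 3 and 5 than on days 1 and 2 in both genotypes, and on both later days BRD9 KO was above LacZ. It rose late by 0.39 (standard error 0.039, edgeR adjusted p = 6.44e-07), and the late effect exceeded the early effect by 0.41 (standard error 0.066, edgeR adjusted p = 0.000408). DUSP2 had 4.86 and 4.87 CPM in BRD9 KO against 4.97 and 6.16 CPM in LacZ libraries on day 1. On day 2, DUSP2 had 3.99 and 3.5 CPM in BRD9 KO against 3.85 and 3.84 CPM in LacZ libraries. It had 4.1 and 4.55 CPM in BRD9 KO against 4.93 and 4.12 CPM in LacZ libraries on day 3, and 5.27 and 5.36 CPM in BRD9 KO against 3.87 and 3.3 CPM in LacZ libraries on day 5. DUSP2, another nuclear phosphatase, separated on day 5 with a log2 fold change of 0.56 (standard error 0.18, edgeR adjusted p = 0.0487), and the call was lost without any 1 of the 4 libraries of that day (edgeR adjusted p = 0.0841 to 0.24).

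The ZFP36 family binds AU-rich elements and promotes decay of immediate-early and cytokine RNAs. ZFP36L2 had 433 and 437 CPM in BRD9 KO against 439 and 441 CPM in LacZ libraries on day 1. On day 2, ZFP36L2 had 352 and 362 CPM in BRD9 KO against 337 and 342 CPM in LacZ libraries. It had 476 and 457 CPM in BRD9 KO against 426 and 450 CPM in LacZ libraries on day 3, and 492 and 469 CPM in BRD9 KO against 436 and 449 CPM in LacZ libraries on day 5. ZFP36L2 rose late by 0.11 (standard error 0.02, edgeR adjusted p = 0.000804), and both BRD9 KO libraries were above both LacZ libraries on days 2, 3 and 5. Its call on day 3 was lost without replicate 1 of BRD9 KO day 3 or replicate 1 of LacZ day 3 (edgeR adjusted p = 0.37 to 0.385) and that on day 5 without replicate 1 of BRD9 KO day 5 or replicate 1 of LacZ day 5 (edgeR adjusted p = 0.113 to 0.128), while the late call was kept. ZFP36L1 had 353 and 347 CPM in BRD9 KO against 357 and 353 CPM in LacZ libraries on day 1. On day 2, ZFP36L1 had 262 and 252 CPM in BRD9 KO against 262 and 262 CPM in LacZ libraries. It had 359 and 356 CPM in BRD9 KO against 338 and 343 CPM in LacZ libraries on day 3, and 283 and 282 CPM in BRD9 KO against 306 and 297 CPM in LacZ libraries on day 5. ZFP36L1 was above LacZ on day 3 and below it on day 5, with log2 fold changes of 0.069 (not called) and -0.093. The day 5 call (edgeR adjusted p = 0.0139) was lost without replicate 2 of BRD9 KO day 5 or replicate 1 of LacZ day 5 (edgeR adjusted p = 0.0917 to 0.176). ZFP36 had 8.4 and 8.73 CPM in BRD9 KO against 10.2 and 9.77 CPM in LacZ libraries on day 1. On day 2, ZFP36 had 6.88 and 5.03 CPM in BRD9 KO against 6.37 and 6.22 CPM in LacZ libraries. It had 7.66 and 9.43 CPM in BRD9 KO against 7.43 and 7.68 CPM in LacZ libraries on day 3, and 8.27 and 8.7 CPM in BRD9 KO against 6.1 and 6.77 CPM in LacZ libraries on day 5. For ZFP36 the late log2 fold change was 0.28 (95% confidence interval 0.065 to 0.50, edgeR adjusted p = 0.0617).

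GADD45A and GADD45B, stress sensors of growth arrest and DNA damage, were not called between genotypes on any day. GADD45A had 62.2 and 66 CPM in BRD9 KO against 67.3 and 69.5 CPM in LacZ libraries on day 1. On day 2, GADD45A had 71.9 and 75.7 CPM in BRD9 KO against 72 and 80.4 CPM in LacZ libraries. It had 70 and 70.5 CPM in BRD9 KO against 74.6 and 74.1 CPM in LacZ libraries on day 3, and 60.7 and 61.3 CPM in BRD9 KO against 66.8 and 63.5 CPM in LacZ libraries on day 5. Both BRD9 KO libraries of GADD45A lay below both LacZ libraries on days 1, 3 and 5, and the late log2 fold change was -0.089 (95% confidence interval -0.16 to -0.013, edgeR adjusted p = 0.0905). GADD45B had 37.9 and 34.8 CPM in BRD9 KO against 34.1 and 33.6 CPM in LacZ libraries on day 1. On day 2, GADD45B had 28.6 and 30.4 CPM in BRD9 KO against 30.2 and 32 CPM in LacZ libraries. It had 33.7 and 33.7 CPM in BRD9 KO against 33.5 and 34.1 CPM in LacZ libraries on day 3, and 30.7 and 29.8 CPM in BRD9 KO against 31.3 and 32.1 CPM in LacZ libraries on day 5. GADD45B had log2 fold changes of 0.093, -0.078, -0.0053 and -0.069 on days 1, 2, 3 and 5. PHLDA1, an ERK-responsive gene of apoptosis and growth control, was lower early. PHLDA1 had 132 and 129 CPM in BRD9 KO against 145 and 138 CPM in LacZ libraries on day 1. On day 2, PHLDA1 had 131 and 126 CPM in BRD9 KO against 148 and 139 CPM in LacZ libraries. It had 169 and 157 CPM in BRD9 KO against 167 and 161 CPM in LacZ libraries on day 3, and 135 and 138 CPM in BRD9 KO against 135 and 134 CPM in LacZ libraries on day 5. Early, PHLDA1 fell by 0.14 on the log2 scale (edgeR adjusted p = 0.015), and without any 1 of 4 libraries the call was lost (edgeR adjusted p = 0.0599 to 0.095): replicate 2 of BRD9 KO and replicate 1 of LacZ on day 1 and on day 2. Late minus early was 0.15 (standard error 0.042, edgeR adjusted p = 0.0415), a call lost without any 1 of 11 of the 16 libraries (edgeR adjusted p = 0.0568 to 0.131): either library of BRD9 KO day 1, replicate 1 of LacZ day 1, replicate 2 of BRD9 KO day 2, replicate 1 of LacZ day 2, replicate 1 of BRD9 KO day 3, replicate 2 of LacZ day 3, either library of BRD9 KO day 5 or either library of LacZ day 5. An antisense gene, PHLDA1-AS1, overlaps it with a mean count of 77.8 against 1859.8.

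The YAP targets split. CYR61 (chromosome 1 of GRCh37, 86046444 to 86050272), a secreted matrix protein, and CTGF (chromosome 6 of GRCh37, 132269316 to 132272512), a related matricellular factor, rose. CYR61 had 107 and 102 CPM in BRD9 KO against 116 and 121 CPM in LacZ libraries on day 1. On day 2, CYR61 had 99.3 and 108 CPM in BRD9 KO against 86 and 82.2 CPM in LacZ libraries. It had 127 and 120 CPM in BRD9 KO against 100 and 94.2 CPM in LacZ libraries on day 3, and 132 and 130 CPM in BRD9 KO against 91.8 and 91.6 CPM in LacZ libraries on day 5. CYR61 was below LacZ on day 1 and above it on each later day. The log2 fold changes were -0.20, 0.30, 0.35 and 0.52 on days 1, 2, 3 and 5, the late rise was 0.43 (standard error 0.034, edgeR adjusted p = 2.10e-08), and the late effect exceeded the early effect by 0.38 (standard error 0.049, edgeR adjusted p = 3.93e-05). CTGF had 132 and 136 CPM in BRD9 KO against 149 and 146 CPM in LacZ libraries on day 1. On day 2, CTGF had 135 and 133 CPM in BRD9 KO against 126 and 131 CPM in LacZ libraries. It had 202 and 212 CPM in BRD9 KO against 176 and 183 CPM in LacZ libraries on day 3, and 195 and 199 CPM in BRD9 KO against 168 and 174 CPM in LacZ libraries on day 5. CTGF was also below LacZ on day 1 and above it on each later day. It rose late by 0.21 (standard error 0.024, edgeR adjusted p = 4.82e-06), with a late minus early difference of 0.25 (standard error 0.036, edgeR adjusted p = 0.000193).

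The CTGF window holds 3 TEAD sites (GGAATG, both strands) at -169 to -164, -104 to -99 and -95 to -90, in capitals below (GRCh38.p14, chr6:131951323-131951622, minus strand).
CTGF: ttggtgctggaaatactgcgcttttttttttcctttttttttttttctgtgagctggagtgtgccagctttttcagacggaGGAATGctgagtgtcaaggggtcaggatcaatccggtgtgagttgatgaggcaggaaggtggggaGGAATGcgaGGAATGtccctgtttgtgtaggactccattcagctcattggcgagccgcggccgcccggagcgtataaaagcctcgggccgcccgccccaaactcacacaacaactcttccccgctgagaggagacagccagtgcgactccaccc
Among the 31 members with a window, 9 held a TEAD site, where 14% of all windows did: EGR2, NR4A3, ZFP36, ZFP36L1, CTGF, AMOTL2, ANKRD1, LATS2 and AJUBA. EGR2 has 3 windows, and its TEAD sites and its CArG box lie in different ones. CYR61 had no window to search. Of the YAP targets in this list CTGF and LATS2 rose late, AJUBA fell, AMOTL2 was not called and ANKRD1 was under the filter.

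AJUBA (chromosome 14 of GRCh37, 23440386 to 23451760), a LIM protein that binds LATS kinases and restrains the Hippo pathway, was lower in BRD9 KO on every day. AJUBA had 76.6 and 76.3 CPM in BRD9 KO against 79 and 84.6 CPM in LacZ libraries on day 1. On day 2, AJUBA had 68.4 and 67.3 CPM in BRD9 KO against 78.4 and 77.7 CPM in LacZ libraries. It had 69.9 and 73.3 CPM in BRD9 KO against 86.9 and 85.7 CPM in LacZ libraries on day 3, and 71.9 and 72.7 CPM in BRD9 KO against 83.1 and 85.1 CPM in LacZ libraries on day 5. In AJUBA every BRD9 KO library was below every LacZ library of its day. The log2 fold changes were -0.10, -0.20, -0.27 and -0.22 on days 1, 2, 3 and 5, and in the late comparison it fell by 0.24 on the log2 scale (standard error 0.029, edgeR adjusted p = 4.82e-06). The day 2 call (edgeR adjusted p = 0.0122) was lost without any 1 of the 4 libraries of that day (edgeR adjusted p = 0.0646 to 0.104). AMOTL2, an angiomotin that holds YAP in the cytoplasm, was about as abundant as CTGF per length (117 and 115 TPM on average in LacZ cells). AMOTL2 had 306 and 307 CPM in BRD9 KO against 318 and 316 CPM in LacZ libraries on day 1. On day 2, AMOTL2 had 282 and 296 CPM in BRD9 KO against 269 and 271 CPM in LacZ libraries. It had 283 and 277 CPM in BRD9 KO against 275 and 283 CPM in LacZ libraries on day 3, and 311 and 305 CPM in BRD9 KO against 309 and 304 CPM in LacZ libraries on day 5. AMOTL2 had overlapping groups on days 3 and 5. Its late log2 fold change was 0.0068 (95% confidence interval -0.033 to 0.047, edgeR adjusted p = 0.856). LATS2, a Hippo kinase that YAP induces as feedback, rose late by 0.10 (standard error 0.027, edgeR adjusted p = 0.0091), with the call lost without replicate 1 of BRD9 KO day 3 or replicate 1 of LacZ day 5 (edgeR adjusted p = 0.0599 to 0.075).

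The members also changed with the day within each genotype. In BRD9 KO cells 17 members were higher and 9 lower on day 5 than on day 1 (all genes 35.1% called, 17.5% in each direction), and in LacZ cells 4 were higher and 13 lower (all genes 25.6% called, 12.7% higher and 12.9% lower). With the added minimum of 0.5 on the log2 scale, 8 members passed in BRD9 KO and 8 in LacZ cells, where 8.42% and 3.72% of all genes did. These comparisons use the same libraries as those between genotypes. EGR1 fell by 1.04 in BRD9 KO cells and by 1.72 in LacZ cells (edgeR adjusted p = 5.23e-10 and 6.08e-12). FOS fell by 1.10 in BRD9 KO and by 1.34 in LacZ cells (edgeR adjusted p = 7.45e-11 and 9.10e-12), and JUNB by 0.47 and 0.86 in the same order of genotypes. Both genotypes thus had their highest FOS, EGR1 and JUNB on day 1, and 6 members were called lower in both, namely EGR1, FOS, IER2, JUNB, JUND and ZFP36L1. The call of JUND was lost in BRD9 KO without replicate 2 of BRD9 KO day 1 or replicate 2 of BRD9 KO day 5 and in LacZ without replicate 1 of LacZ day 5 (edgeR adjusted p = 0.0707 to 0.0743 and 0.0844).

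Between day 1 and day 5 other members went up in both genotypes or in opposite directions. DUSP5 rose by 1.34 in BRD9 KO and by 0.87 in LacZ cells, CTGF by 0.56 in BRD9 KO and 0.21 in LacZ cells, and FOSL1 and FOSL2 were also called higher in both. In BRD9 KO these last calls were lost without replicate 2 of BRD9 KO day 1 or replicate 2 of BRD9 KO day 5 for FOSL1 and either library of BRD9 KO day 1 or replicate 1 of BRD9 KO day 5 for FOSL2 (edgeR adjusted p = 0.0707 to 0.311 and 0.0537 to 0.108). CYR61 rose by 0.34 in BRD9 KO and fell by 0.38 in LacZ cells (edgeR adjusted p = 1.97e-05 and 1.32e-05). DUSP1 rose by 0.21 in BRD9 KO and fell by 0.21 in LacZ cells (edgeR adjusted p = 0.000168 and 0.00028). These are end points only. On days 1, 2, 3 and 5 mean DUSP1 was 98, 89.4, 152 and 114 CPM in BRD9 KO and 106, 86, 120 and 91.6 CPM in LacZ cells. Both genotypes thus dipped on day 2 and peaked on day 3. NR4A3 rose by 2.45 and NR4A2 by 2.17 in BRD9 KO cells, and in LacZ cells they had 0.28 and 1.01, not called. Both had their highest mean on day 3 in both genotypes, with NR4A3 at 4.95 CPM in BRD9 KO and 2.32 CPM in LacZ cells. KLF6 rose by 0.54 and KLF2 by 0.58 in BRD9 KO cells, against -0.05 and 0.25 in LacZ cells, not called. The KLF2 call was lost without replicate 2 of BRD9 KO day 1 (edgeR adjusted p = 0.132). GADD45B fell by 0.26 in BRD9 KO cells and had -0.095 in LacZ cells, not called. Calls in 1 genotype alone, above and below, are no test of a difference between the genotypes. For NR4A2, KLF2, GADD45B, FOSB, KLF4, ZFP36 and DUSP2 neither late minus early nor the F-test over days was called. FOSB, KLF4, ZFP36 and DUSP2 fell in LacZ cells, by 1.03, 0.79, 0.63 and 0.63 on the log2 scale, and were not called in BRD9 KO cells. Those of FOSB, KLF4 and DUSP2 were lost without single LacZ libraries (edgeR adjusted p = 0.055 to 0.182, 0.0566 to 0.0976 and 0.106 to 0.176): replicate 1 of day 1 and both of day 5 for FOSB, and replicate 2 of days 1 and 5 for KLF4 and DUSP2.

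**Figure D4:**
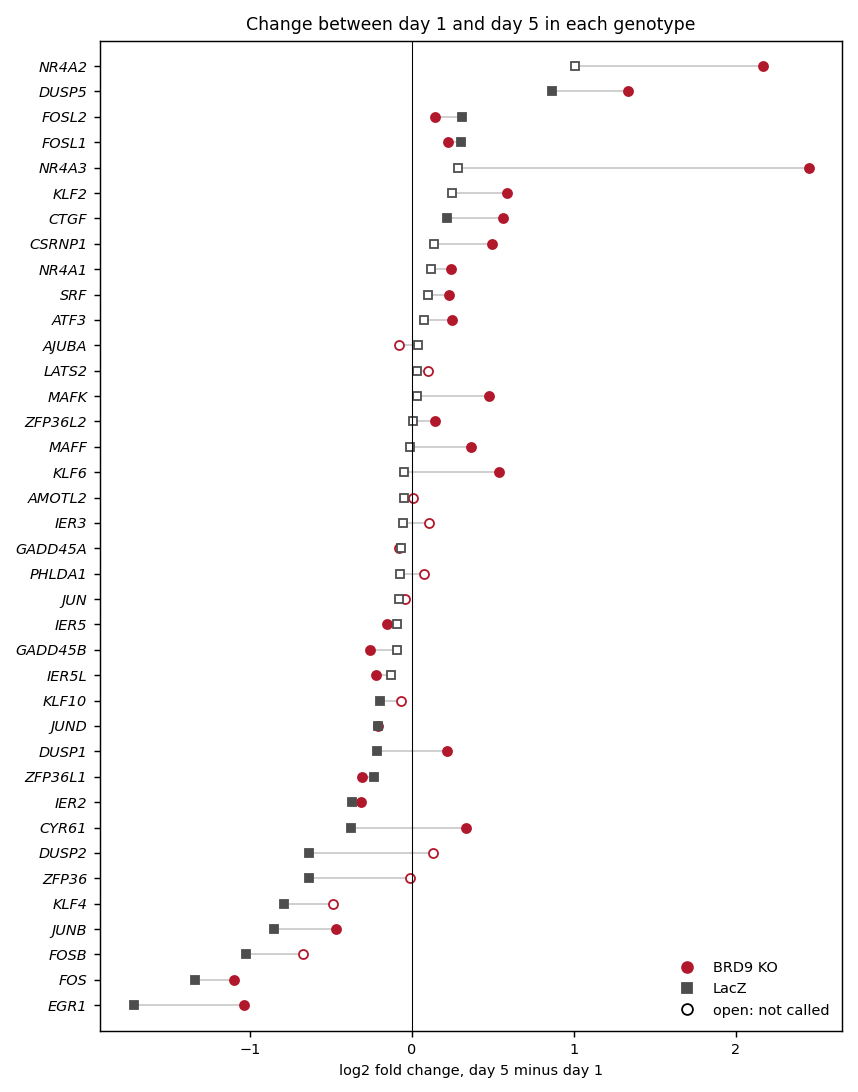
Log2 fold change of day 5 minus day 1 (horizontal axis) for the 38 members tested, ordered by the value in LacZ cells, with red circles for BRD9 KO, grey squares for LacZ, filled where the adjusted p was under 0.05. EGR1, FOS and JUNB are filled and left of 0 in both genotypes, while CYR61 and DUSP1 are right of 0 in BRD9 KO and left of 0 in LacZ.

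The genes around these members in the same pathways were counted in the late comparison. Each list is set beside the members' median of 0.14 and the 21.5% of all genes called (10.6% higher and 10.9% lower). Among genes with a log2 CPM over 5, 16.4% were called higher and 19% lower. The lists were chosen with earlier results of these data known, so their counts are no independent support for a pattern. Some late calls of the list genes named below were lost with limma on log2(TPM + 1). They were those of SIK1, KLF9, MAFG, MAPK3, ARAF, HSP90AA1, VGLL4, MOB1A, TAOK2, CRIM1 and CNN2. AP-1 target genes, which code for secreted proteases and growth factors among others, were mostly higher: 10 of 11 tested were called higher and 0 lower, with a median log2 fold change of 0.26. PLAU, the urokinase protease, rose by 0.42 (edgeR adjusted p = 6.83e-15) and the heme oxygenase HMOX1 by 0.45 (edgeR adjusted p = 3.34e-07). Of 26 other immediate-early genes 8 were higher and 2 lower (median 0.091). BHLHE40, a circadian repressor, rose by 0.40 (edgeR adjusted p = 1.21e-08), RHOB, a small GTPase, by 0.26 (edgeR adjusted p = 8.59e-08) and RGS2, a brake on G protein signaling, by 0.33 (edgeR adjusted p = 8.84e-05), while the kinase SIK1 fell by 0.17 (edgeR adjusted p = 0.000724) and KLF9, a hormone-induced repressor, by 0.22 (edgeR adjusted p = 0.0252). Of 9 other bZIP partners 3 were higher and 0 lower, CREM by 0.34 (edgeR adjusted p = 3.06e-06), BATF3 by 0.63 (edgeR adjusted p = 0.00926) and MAFG by 0.11 (edgeR adjusted p = 0.0116). The call of KLF9 was lost without either library of BRD9 KO day 3, either library of LacZ day 3, replicate 2 of BRD9 KO day 5 or replicate 2 of LacZ day 5 (edgeR adjusted p = 0.0555 to 0.185), that of BATF3 without replicate 1 of BRD9 KO day 3 (0.0828) and that of MAFG without replicate 2 of LacZ day 3, replicate 2 of BRD9 KO day 5 or replicate 2 of LacZ day 5 (0.0617 to 0.0639).

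Of the 18 genes of the MAP kinase cascade 3 were higher and 2 lower (median 0.022). RPS6KA2, a kinase downstream of ERK, rose by 0.22 (edgeR adjusted p = 4.00e-05), MAPK3, which is ERK1, by 0.17 (edgeR adjusted p = 0.0193) and MAP2K3, which activates p38, by 0.15 (edgeR adjusted p = 0.00704). MAP2K2, which activates ERK, fell by 0.22 (edgeR adjusted p = 2.56e-08) and ARAF, a RAF kinase, by 0.13 (edgeR adjusted p = 0.0212). The call of MAPK3 was lost without replicate 2 of BRD9 KO day 3, replicate 2 of LacZ day 3, replicate 2 of BRD9 KO day 5 or replicate 1 of LacZ day 5 (edgeR adjusted p = 0.0632 to 0.125), that of MAP2K3 without replicate 1 of BRD9 KO day 3 or replicate 2 of BRD9 KO day 5 (0.0537 to 0.0556) and that of ARAF without replicate 1 of BRD9 KO day 3, replicate 1 of LacZ day 3, replicate 2 of BRD9 KO day 5 or replicate 2 of LacZ day 5 (0.0687 to 0.175). Of 11 feedback and output genes of ERK 4 were higher and 0 lower (median 0.041), among them the ERK phosphatase DUSP6 with 0.36 (edgeR adjusted p = 2.69e-09), the inhibitor SPRY4 with 0.42 (edgeR adjusted p = 1.31e-08) and cyclin D1 (CCND1) with 0.18 (edgeR adjusted p = 2.59e-07). Of 12 heat shock genes 0 were higher and 7 lower (median -0.057). HSPH1 fell by 0.15 (edgeR adjusted p = 9.22e-06), HSP90AB1 by 0.059 and HSP90AA1 by 0.055, all protein chaperones.

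The Hippo, YAP and SRF lists each held genes called in both directions. Of 19 genes of the Hippo pathway and TEAD factors 3 were higher and 4 lower (median 0.035). VGLL4, a TEAD cofactor that opposes YAP, rose by 0.13 (edgeR adjusted p = 0.00682), the kinase adaptor MOB1A by 0.074 (edgeR adjusted p = 0.0114) and the kinase TAOK2 by 0.11 (edgeR adjusted p = 0.0217). NF2, an upstream activator of the Hippo kinases, fell by 0.21 (edgeR adjusted p = 3.31e-05), the angiomotin AMOTL1 by 0.18 (edgeR adjusted p = 1.78e-05) and TEAD3 by 0.15 (edgeR adjusted p = 0.00654). The call of MOB1A was lost without replicate 1 of LacZ day 3, replicate 2 of BRD9 KO day 5 or replicate 2 of LacZ day 5 (edgeR adjusted p = 0.0527 to 0.0627), that of TAOK2 without replicate 1 of BRD9 KO day 3, either library of LacZ day 3, replicate 1 of BRD9 KO day 5 or either library of LacZ day 5 (0.0509 to 0.159) and that of TEAD3 without replicate 1 of LacZ day 3 (0.0745). Of 12 other YAP and TAZ targets 2 were higher and 3 lower (median -0.099). The receptor kinase AXL fell by 0.44 (edgeR adjusted p = 4.46e-08), the membrane protein MYOF by 0.21 and CRIM1 by 0.11, while IGFBP3, which binds insulin-like growth factors, rose by 0.18 (edgeR adjusted p = 6.45e-08) and the phosphatase PTPN14 by 0.13 (edgeR adjusted p = 0.00295). Of 16 SRF cofactors and MRTF targets 4 were higher and 3 lower (median 0.04). The adhesion proteins ZYX and VCL rose by 0.23 (edgeR adjusted p = 2.64e-06) and 0.14 (edgeR adjusted p = 4.06e-10) and TPM1 by 0.056 (edgeR adjusted p = 0.000186), while the actin crosslinker FLNA fell by 0.27 (edgeR adjusted p = 6.60e-13), TAGLN by 0.18 and CNN2 by 0.048. The CNN2 call was lost without replicate 1 of BRD9 KO day 3, either library of LacZ day 3, replicate 2 of BRD9 KO day 5 or replicate 1 of LacZ day 5 (edgeR adjusted p = 0.0637 to 0.177).

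**Figure D5:**
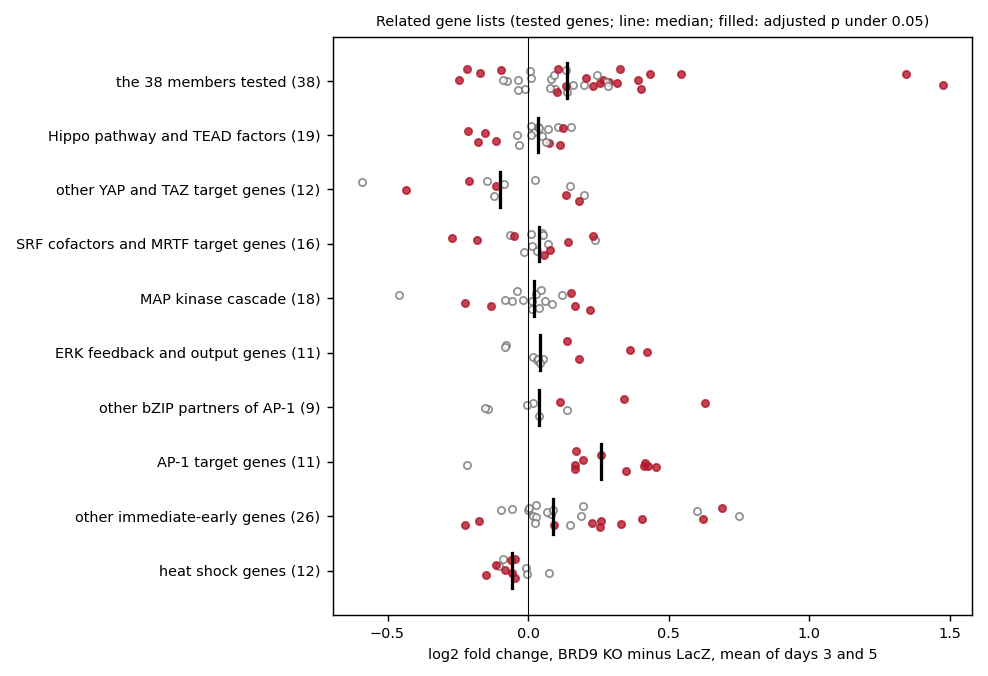
Log2 fold change of BRD9 KO minus LacZ averaged over days 3 and 5 (horizontal axis) for each tested gene of the members and of 9 related lists (rows, with the number tested), with points spread vertically for visibility, filled red for an adjusted p under 0.05 and a black line at each median. The AP-1 targets have their median at 0.26 with 10 filled points right of 0, and the other YAP and TAZ targets have theirs at -0.099.

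The comparisons rest on 2 libraries per group, which the study calls biological replicates. No source used here says that each had its own culture, and the p-values then measure only the spread between these libraries, which may be technical. Of the 38 tested members 13 were not called in any comparison of genotypes, namely AMOTL2, FOSB, FOSL1, GADD45A, GADD45B, IER5, JUN, KLF2, KLF4, MAFF, MAFK, SRF and ZFP36.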

How the data were processed

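RNA-seq libraries were made with a kit that does not keep strand. The authors aligned reads to hg19 with STAR and quantified genes with RSEM, and they deposited an expected count and a TPM value (transcript abundance scaled for length and depth) for each gene and library; tool versions are not given in the sources used here. Between 34.6% and 36.6% of the non-zero expected counts in a library were not whole, and all were rounded.

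Genes were filtered with edgeR's filterByExpr (minimum count 10, minimum total 15), which left 15027. A mean per genotype and day was fitted to all 16 libraries with edgeR 4.0.16 in R 4.3.3 (TMM, quasi-likelihood test, Benjamini-Hochberg over all genes tested, 8 residual degrees of freedom), and the script was tested on simulated data. CPM values are TMM-normalized. TPM was used for levels between genes and markers, for limma on log2(TPM + 1) and for NR4A1 between genotypes on day 5. Alternatives were DESeq2 1.42.0, its size factors, limma 3.58.1 on log2(TPM + 1), no filter, the libraries of each contrast alone, a replicate block, a minimum fold and leaving out each library.

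Values in every library are printed for BRD9, for up to 6 called members per direction and contrast with the largest change, and for the most abundant member of each role. For related lists, up to 3 called genes per direction are named. A marker and a list gene that these rules would name are not reported here. The members and lists were chosen with earlier results of these data known. Gene coordinates are from GENCODE lifted to GRCh37, and promoter windows from RefSeq on GRCh38.p14, which had 1 for 31 of the 43 members.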

Additional observations from a re-analysis of the deposited data

Results flagged for a closer look

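In 10 members the BRD9 KO effect differed between the late days (3 and 5) and the early days (1 and 2) by a test of that difference itself. Of these, 9 were called higher in BRD9 KO late, and PHLDA1 was called lower early and not called late. EGR1, CYR61 and KLF6 were already called higher on day 2, with log2 fold changes of 0.56, 0.30 and 0.18. Their early value averages day 2 with negative log2 fold changes on day 1. The day 2 calls of EGR1 and KLF6 were lost without single libraries. The late effect minus the early effect on the log2 scale was 1.67 for NR4A3, 0.41 for DUSP5, 0.38 for CYR61, 0.36 for DUSP1, 0.33 for JUNB, 0.33 for EGR1, 0.32 for KLF6, 0.26 for ATF3, 0.25 for CTGF and 0.15 for PHLDA1. In another 3 members the effect differed among the 4 days by an F-test without such a difference between late and early, with edgeR adjusted p of 0.0165 for FOS, 0.0186 for IER2 and 0.0354 for ZFP36L1. FOS was lower in BRD9 KO on day 1, IER2 was higher on day 3 and ZFP36L1 was lower on day 5. With limma on log2(TPM + 1) the late minus early calls of ATF3, EGR1, NR4A3 and PHLDA1 were lost. The F-test calls of FOS, IER2 and ZFP36L1 were lost with limma and with DESeq2, and DESeq2 also lost the late minus early calls of EGR1 and PHLDA1. The ZFP36L1 call was lost without any 1 of 11 of the 16 libraries (edgeR adjusted p up to 0.133), and the libraries that end the calls of FOS, IER2, EGR1, NR4A3 and PHLDA1 are named in the report.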

How the results depend on the processing

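DESeq2's size factors in edgeR changed no count of called members. With an added minimum absolute log2 fold change of 0.5, the called members numbered 0, 1, 2 and 6 on days 1, 2, 3 and 5, 0 early, 3 late, 1 in late minus early, and 8 in each of BRD9 KO and LacZ for day 5 minus day 1. Limma on log2(TPM + 1) called 0, 2, 9 and 9 members on days 1, 2, 3 and 5, 0 early, 6 in late minus early and 5 in the test over days. The late comparison called 16 with limma and 17 with DESeq2, against 20 with edgeR. DESeq2 called 2 on day 2 and 6 in the test over days, where it gave no adjusted p for 15 and 5 of the 38 members, and leaving out the filter gave 5 on day 1; the cause was not tested. One sign changed: ZFP36L1 on day 5 had a log2 fold change of 0.016 with limma on TPM (adjusted p = 0.857).

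Pairing by replicate number was not shown. Same-numbered BRD9 KO and LacZ libraries had residual correlations of -0.0123, -0.0489, -0.0245 and -0.0176 on days 1, 2, 3 and 5 over all genes. Over the 6273 genes with a mean log2 CPM over 5 they were -0.0435, -0.118, 0.101 and 0.177, not above 0.1 on every day. With 2 libraries per group these values cannot exclude a shared culture or handling. With a replicate block there was 1 call on day 1, and there were 5 on day 2, 15 on day 3, 18 on day 5, 4 early, 20 late, 10 in late minus early and 10 in the test over days, 18 in LacZ and 26 in BRD9 KO for day 5 minus day 1. The calls lost under the block were those of JUND on day 1, KLF10 on day 2, ZFP36L2 on day 3, DUSP2 on day 5, EGR1 early and ZFP36L1 in the test over days.

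Leaving out 1 library at a time gave 0 to 1 calls on day 1, 2 on day 2, 10 to 16 on day 3, 11 to 16 on day 5, 2 to 4 early, 18 to 21 late, 8 to 11 in late minus early, 9 to 11 in the test over days, and, for day 5 minus day 1, 19 to 25 in BRD9 KO cells with 13 to 15 in LacZ cells. A lone library left in a group is assumed to vary like the other groups. A fit on the libraries of a contrast alone could not be made for late minus early or the test over days, which use all 16. The low counts of NR4A2, NR4A3 and FOSB limit their precision, and the 5 members under the filter could not be assessed.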
